A study of Mus musculus with 16 samples.

Results

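Metastasis susceptibility genes are genes whose inherited variants change how readily a tumor spreads, and 6 of them that were found in mouse crosses, *Sipa1*, *Rrp1b*, *Cadm1*, *Arid4b*, *Cnot2* and *Nup210*, are described here in tumors with and without a gene trap in another such gene, *Resf1*. They were taken by symbol, as inherited modifiers of mammary tumor metastasis, and not by their values. All 6 were among the 23609 genes of the table, and all 6 were among the 21034 that had means of 10 or more and were tested. Total RNA from primary mammary tumors was sequenced after library preparation with a stranded kit. Every animal carried the MMTV-PyMT transgene, in which the MMTV promoter drives the polyoma middle T antigen in the mammary epithelium and tumors form there. The wildtype group had no change in *Resf1*, and the gene trap group consisted of littermates with 1 gene trap allele (labelled Resf1 +/-), a lentiviral insertion in the first exon that expresses an EGFP-cre fusion and is present in all cells of the animal, tumor and host. The ages of the animals were not given in the labels. Of 8 labelled tumors per group, 5 wildtype and 5 gene trap tumors were matched to values. The labels give them as separate tumors and do not say which animals they came from, so p-values measure the spread between these tumors.

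Inherited variants can alter metastasis through the level of a gene as well as through its protein, and the 6 genes work in separate parts of the cell. SIPA1 is a GTPase activating protein that switches off Rap GTPases, which control adhesion. RRP1B is a nucleolar protein that takes part in ribosomal RNA processing and can bind SIPA1. CADM1 is an immunoglobulin-like adhesion protein at epithelial contacts, and its loss favors metastasis. ARID4B is a subunit of the SIN3-HDAC corepressor complex, CNOT2 is a scaffold subunit of the CCR4-NOT complex that shortens the poly(A) tails of mRNA, and NUP210 is a membrane-spanning protein of the nuclear pore. The comparison asks whether a reduction of *Resf1* came with a change in the expression of the other susceptibility genes.

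Promoter sequences of 5 of the 6 genes were found in RefSeq (GRCm38.p6), and *Cadm1* had no entry. *Sipa1*, *Arid4b* and *Cnot2* are shown because they form the pairs of genes that passed by Pearson's r across tumors in the correlations described after the values. The 250 bases before the start site farthest upstream are given 5′ to 3′ on the strand of the gene, and capitals mark runs of at least 3 G or at least 3 C, the repeat from which G4 quadruplexes can be built on one strand or on the other.
Sipa1, chr19:5663708-5663957, minus strand: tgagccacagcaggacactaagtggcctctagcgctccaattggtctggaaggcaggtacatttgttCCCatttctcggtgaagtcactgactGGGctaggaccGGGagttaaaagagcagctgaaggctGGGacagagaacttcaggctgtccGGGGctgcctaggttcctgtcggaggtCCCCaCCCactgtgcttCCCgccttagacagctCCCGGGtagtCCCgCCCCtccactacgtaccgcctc
Arid4b, chr13:14063534-14063783, plus strand: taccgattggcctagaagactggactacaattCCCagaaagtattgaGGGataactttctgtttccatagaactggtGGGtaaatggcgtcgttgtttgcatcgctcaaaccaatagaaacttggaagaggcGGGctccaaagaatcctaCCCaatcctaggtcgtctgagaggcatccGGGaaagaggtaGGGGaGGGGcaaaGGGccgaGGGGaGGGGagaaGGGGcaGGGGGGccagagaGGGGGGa
Cnot2, chr10:116580537-116580786, minus strand: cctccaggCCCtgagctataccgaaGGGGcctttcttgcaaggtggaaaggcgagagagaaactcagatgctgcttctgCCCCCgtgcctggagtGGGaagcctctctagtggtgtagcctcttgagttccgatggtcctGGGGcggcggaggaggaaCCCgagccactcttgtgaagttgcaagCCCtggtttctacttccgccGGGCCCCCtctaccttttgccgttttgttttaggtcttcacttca
The *Sipa1* promoter held 5 G runs and 7 C runs. The *Arid4b* promoter held 12 G runs and 2 C runs, most of the G runs lying in the stretch nearest to the start site. The *Cnot2* promoter held 4 G runs and 5 C runs. Such runs are common, and the median over the promoters of 27025 genes was 8 runs of either kind. At least as many runs as in *Sipa1* (12), *Arid4b* (14) and *Cnot2* (9) were found in 28.5%, 18.9% and 48.0% of promoters, respectively. *Rrp1b*, with 13 runs, and *Nup210*, with 10, were also within the usual range, with at least as many runs in 23.4% and 40.9% of promoters. *Nup210* was the gene with the most CpG dinucleotides, with 30 in the 250 bases, a number reached by 5.64% of promoters, while the other 4 had between 8 and 10.

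The values are estimated counts per gene that the authors had normalized between tumors, which leaves the depth of sequencing unknown, and they are called normalized values here. The column totals lay between 31995078 and 42153593. The luminal epithelial marker list, with 10 of 10 genes measured, was present in every tumor, with sums of 118937 to 150980 in the wildtype and 117899 to 147791 in the gene trap group. Gene trap replicate 2 had the highest *Sipa1* and the lowest *Arid4b* and *Resf1* values of the 10 tumors, and values without it are given where leaving it out moved a result by more than 1.5 times or ended a call. In bulk tumors, fewer cells of a type and less RNA per cell cannot be told apart. The labels give no batch.

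*Resf1* (ENSMUSG00000032712, chromosome 6) was examined first because it carries the gene trap. Its normalized values were 4215, 4397, 3881, 4487 and 3517 in wildtype replicates 1 to 5 and 4029, 3066, 3686, 3392 and 3409 in gene trap replicates 1 to 5. The groups overlapped, with 3 gene trap tumors below every wildtype tumor and 3 wildtype tumors above every gene trap tumor. The log2 fold change was -0.22 (standard error 0.09, 95% interval -0.42 to -0.02), and limma gave an unadjusted p of 0.0313 and an adjusted p of 0.9997 (Benjamini-Hochberg), with an exact two-sided permutation p of 0.0635. Without gene trap replicate 2, its lowest tumor, the log2 fold change was -0.17 and the unadjusted p 0.0684 in limma, and the unadjusted p was under 0.05 in 4 of the 10 fits that each lacked a tumor (not without wildtype replicate 1, 2 or 4 or gene trap replicate 2, 4 or 5).

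Of the 6 susceptibility genes, *Sipa1* and *Rrp1b* had higher mean values in gene trap than in wildtype tumors, and *Cadm1*, *Arid4b*, *Cnot2* and *Nup210* had lower mean values. The differences were at most 10.7% in size, and the 95% interval of each included 0. By limma, 0 of 6 reached an adjusted p under 0.05, as did 0% of all tested genes, and 0 of 6 had an unadjusted p under 0.05, against 2.28% (479) of all tested genes. The groups overlapped for each of the 6 genes, and 0.528% of all tested genes had groups that did not overlap. Each of the 6 genes had an adjusted p of 0.9997. The median log2 fold change of the 6 genes was -0.07, beside 0.00467 over all tested genes, whose quartiles were -0.09 and 0.10, and it was -0.04 without gene trap replicate 2. With 5 tumors per group, the smallest p that the exact permutation test can give is 0.00794.

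**Figure D1:**
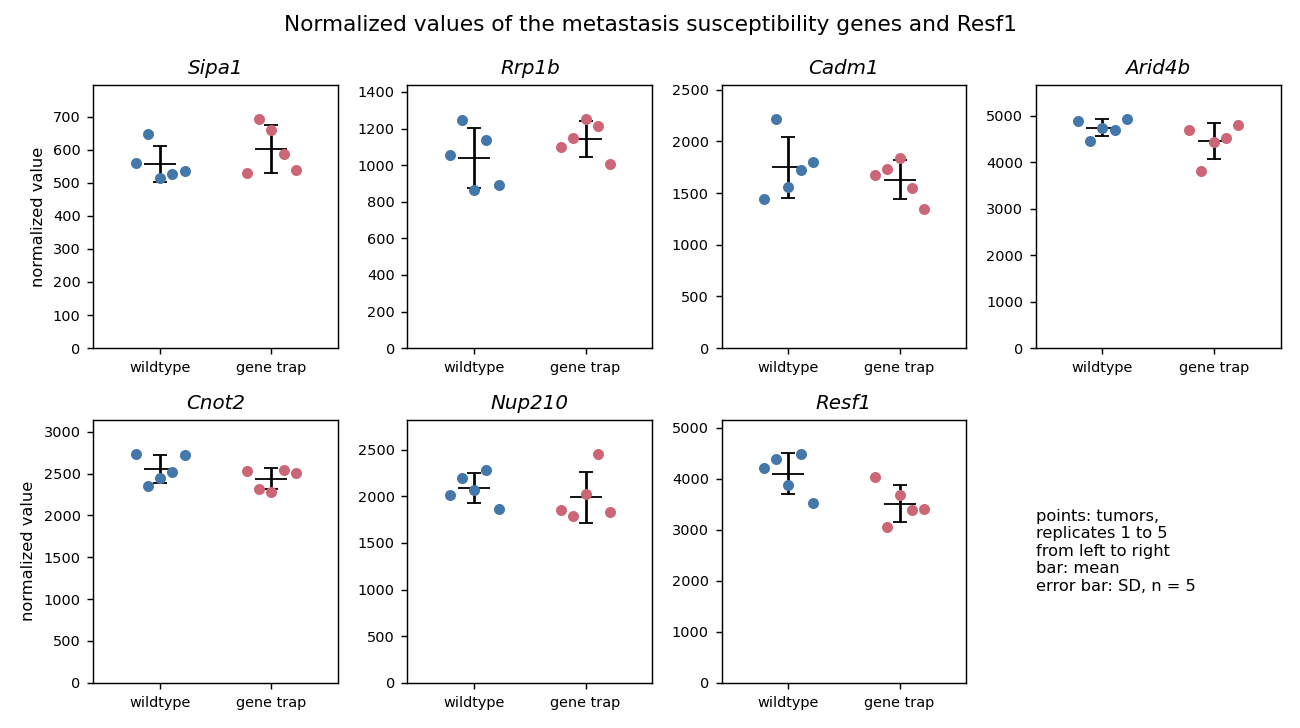
Normalized values (vertical axes, from 0) of the 6 susceptibility genes and *Resf1* in 5 wildtype (blue) and 5 gene trap (red) tumors, with each point a tumor and the bar and error bar the mean ± SD. The points of both groups overlap in every panel, and *Resf1* has 3 gene trap tumors below all wildtype tumors.

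*Sipa1* (ENSMUSG00000056917, chromosome 19) had values of 560, 649, 514, 525 and 536 in wildtype replicates 1 to 5 and of 529, 692, 659, 586 and 539 in gene trap replicates 1 to 5. The 2 highest tumors were gene trap replicates 2 and 3, and wildtype replicate 2 followed closely. The mean was 557 ± 54.0 (SD, n = 5) in wildtype and 601 ± 72.1 (SD, n = 5) with the gene trap. Its log2 fold change was 0.11 (standard error 0.10, 95% interval -0.12 to 0.33), and the difference of the means was less than either SD (p = 0.254, exact permutation, two-sided). It was 0.05 without gene trap replicate 2.

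*Rrp1b* (ENSMUSG00000058392, chromosome 17) had values of 1057, 1248, 865, 1136 and 892 in wildtype replicates 1 to 5 and of 1098, 1149, 1251, 1213 and 1005 in gene trap replicates 1 to 5. Wildtype replicates 3 and 5 lay below all other tumors, and the highest wildtype and gene trap tumors were nearly equal. The mean was 1040 ± 162 (SD, n = 5) in wildtype and 1143 ± 97.2 (SD, n = 5) with the gene trap, a log2 fold change of 0.15 (standard error 0.11, 95% interval -0.09 to 0.39). This was the largest of the 6 changes in size, and it was within the spread between tumors (exact two-sided permutation test, p = 0.230). It fell to 0.08 without wildtype replicate 3 and rose to 0.22 without wildtype replicate 2.

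*Cadm1* (ENSMUSG00000032076, chromosome 9) had values of 1443, 2214, 1557, 1725 and 1800 in wildtype replicates 1 to 5 and of 1677, 1729, 1843, 1547 and 1349 in gene trap replicates 1 to 5. Wildtype replicate 2 was above all other tumors and gene trap replicate 5 was below them, and the remaining tumors were interleaved. *Cadm1* varied most among the 6 genes, with a coefficient of variation of 14.3% over the 10 tumors. The mean was 1748 ± 296 (SD, n = 5) in wildtype and 1629 ± 189 (SD, n = 5) with the gene trap, and its log2 fold change was -0.09 (standard error 0.12, 95% interval -0.35 to 0.17, exact two-sided permutation p = 0.492). Without wildtype replicate 2 it was -0.0050.

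*Arid4b* (ENSMUSG00000039219, chromosome 13) had values of 4885, 4462, 4725, 4694 and 4921 in wildtype replicates 1 to 5 and of 4687, 3806, 4440, 4514 and 4801 in gene trap replicates 1 to 5. Gene trap replicate 2 was the lowest of all tumors, and the other 9 lay within a narrow range from 4440 to 4921. The mean was 4737 ± 183 (SD, n = 5) in wildtype and 4450 ± 387 (SD, n = 5) with the gene trap. Its log2 fold change was -0.09 (standard error 0.07, 95% interval -0.25 to 0.06, exact two-sided permutation p = 0.151), and it was -0.04 without gene trap replicate 2.

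*Cnot2* (ENSMUSG00000020166, chromosome 10) had values of 2733, 2355, 2452, 2520 and 2727 in wildtype replicates 1 to 5 and of 2532, 2316, 2284, 2538 and 2509 in gene trap replicates 1 to 5. Wildtype replicates 1 and 5 were above every gene trap tumor, and gene trap replicates 2 and 3 were below every wildtype tumor. *Cnot2* varied least among the 6 genes, with a coefficient of variation of 6.16%, and 12.8% of the 2299 genes of similar level varied less. The mean was 2558 ± 168 (SD, n = 5) in wildtype and 2436 ± 125 (SD, n = 5) with the gene trap. Its log2 fold change of -0.07 (standard error 0.07) had the narrowest interval of the 6, from -0.22 to 0.08 (exact two-sided permutation test, p = 0.246).

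*Nup210* (ENSMUSG00000030091) lies on chromosome 6, as does *Resf1*. Its values were 2016, 2200, 2067, 2281 and 1866 in wildtype replicates 1 to 5 and 1854, 1789, 2024, 2453 and 1835 in gene trap replicates 1 to 5. The gene trap tumors were split, with 3 below every wildtype tumor and gene trap replicate 4 above every wildtype tumor. The mean was 2086 ± 162 (SD, n = 5) in wildtype and 1991 ± 273 (SD, n = 5) with the gene trap, a log2 fold change of -0.07 (standard error 0.10, 95% interval -0.28 to 0.13, exact two-sided permutation p = 0.437). Leaving out a single tumor moved the log2 fold change both ways, to -0.15 without gene trap replicate 4 (exact permutation p = 0.0476, unadjusted p = 0.0792 in limma), to -0.04 without gene trap replicate 2 (exact permutation p = 0.690) and to -0.04 without wildtype replicate 4 (exact permutation p = 0.698).

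**Figure D2:**
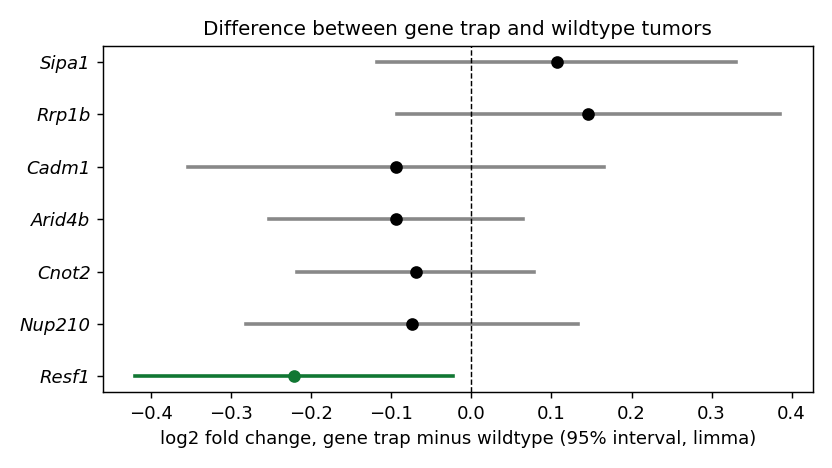
Log2 fold change of gene trap against wildtype tumors (horizontal axis) with its 95% interval from limma, for the 6 susceptibility genes (black) and *Resf1* (green). The intervals of the 6 genes all include 0, and that of *Resf1* runs from -0.42 to -0.02.

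Per kilobase of merged exons, *Cnot2* had the highest value of the 6 genes, at 627 ± 41.3 (SD, n = 5) in wildtype and 598 ± 30.6 (SD, n = 5) in gene trap tumors. *Arid4b* followed at 279 ± 10.8 and 262 ± 22.8, *Nup210* at 199 ± 15.4 and 190 ± 26.1, *Cadm1* at 167 ± 28.3 and 156 ± 18.1, *Rrp1b* at 135 ± 21.1 and 148 ± 12.6 and *Sipa1* at 126 ± 12.2 and 136 ± 16.3 (SD, n = 5 for each). *Cnot2* was above *Arid4b* in all tumors with no overlap of their values. *Arid4b* was above *Nup210* within each of the 10 tumors, although the ranges over tumors overlapped. The ranges of the lower neighbors also overlapped. Within tumors, *Nup210* exceeded *Cadm1* in 9 of 10, *Cadm1* exceeded *Rrp1b* in 8 of 10 and *Rrp1b* exceeded *Sipa1* in 7 of 10, and the order was not tested. Merged exons cover all transcripts of a gene model, 16965 bases for *Arid4b* and 4076 for *Cnot2*, and can be longer than the mRNA present. The order is therefore not one of mRNA abundance. Before division by length, *Arid4b* had the higher wildtype mean (4737, against 2558 for *Cnot2*). The gene models of *Rrp1b*, *Arid4b* and *Cnot2* share exon bases with a gene on the opposite strand (*Hsf2bp*, *Ggps1* and *5330438D12Rik*), and how strand was treated in counting is not given in the sources used here.

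Whether the 6 genes varied together was examined over the 10 tumors. *Arid4b* and *Sipa1* went in opposite directions (Pearson r = -0.82, permutation p = 0.00137, adjusted over 15 pairs 0.0206; Spearman rho = -0.66, permutation p = 0.0430, adjusted 0.161). *Arid4b* and *Cnot2* rose and fell together (Pearson r = 0.74, permutation p = 0.00548, adjusted 0.0411; Spearman rho = 0.75, permutation p = 0.0181, adjusted 0.103). These 2 of 15 pairs passed after adjustment by Pearson's r, and 0 of 15 passed by rank. By rank the strongest pair was *Rrp1b* with *Arid4b* (Spearman rho = -0.83, permutation p = 0.00475, adjusted 0.0712). Its Pearson r was -0.52 (permutation p = 0.125, adjusted 0.289), and -0.80 without gene trap replicate 2. Wildtype replicate 2 and gene trap replicates 2 and 3 had the 3 highest *Sipa1* values and the 3 lowest *Arid4b* values, and also the 3 lowest *Cnot2* values. When the 2 tumors farthest from the median of the first gene were left out, r was -0.67 for *Sipa1* with *Arid4b* and 0.79 for *Arid4b* with *Cnot2*, and without gene trap replicate 2 alone it was -0.77 and 0.85, with adjusted permutation p of 0.0735 and 0.0619. The first pair also missed the threshold without wildtype replicate 2 (r = -0.84, adjusted permutation p = 0.0561), and the second passed in only 3 of the 10 sets that each lacked a tumor.

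For deviations from the group means, both relations kept their sign and missed the threshold. The r was -0.79 for *Sipa1* and *Arid4b* (adjusted permutation p = 0.0507) and 0.68 for *Arid4b* and *Cnot2* (adjusted permutation p = 0.126). *Sipa1* and *Rrp1b*, whose proteins bind each other, had r = 0.69 (permutation p = 0.0274) and rho = 0.73 (permutation p = 0.0206), with adjusted p of 0.104 and 0.103. *Nup210* had r of -0.03 with *Sipa1*, -0.02 with *Cnot2*, 0.17 with *Cadm1*, 0.40 with *Rrp1b* and 0.13 with *Arid4b*. Without gene trap replicate 2 these were 0.31, -0.24, 0.22, 0.52 and -0.57, respectively.

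**Figure D3:**
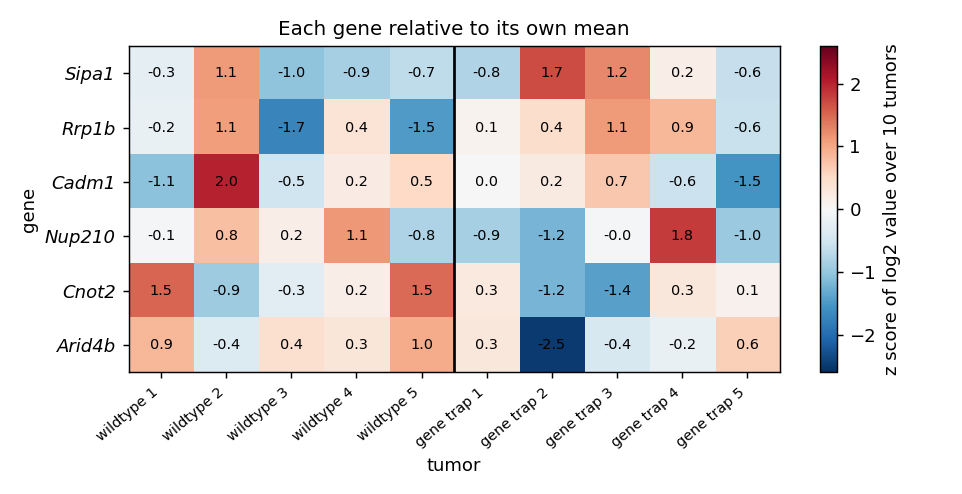
Z score of the log2 value of each gene (rows) over the 10 tumors (columns, wildtype left of the black line and gene trap right of it), with red above and blue below the gene's mean. Wildtype replicate 2 and gene trap replicates 2 and 3 are red for *Sipa1* and blue for *Cnot2* and *Arid4b*.

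**Figure D4:**
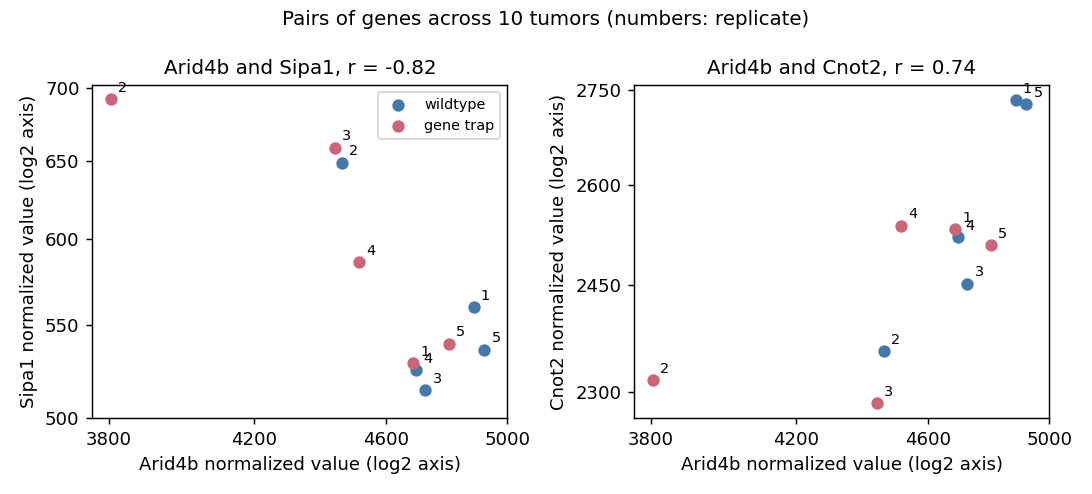
Normalized values of *Arid4b* (horizontal axis) against *Sipa1* (left) and *Cnot2* (right) on log2 axes, with each point a tumor numbered by replicate (blue wildtype, red gene trap). *Sipa1* decreases with *Arid4b* (r = -0.82), *Cnot2* increases with it (r = 0.74), and gene trap replicate 2 is at the far left of both plots.

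The GC content of the transcripts was set beside these relations. The longest transcript of *Sipa1* has 61.2% GC, more than 98.1% of tested genes, while those of *Arid4b* (40.7%), *Cnot2* (43.9%) and *Cadm1* (43.9%) are below the median of 48.9%. *Rrp1b* (52.7%) and *Nup210* (55.0%) are above it. In each tumor the deviation of all genes from their mean was correlated with GC content, with rho between -0.35 and 0.27 across genes, a description in which genes are not independent. In wildtype replicates 1 to 5 this rho was -0.25, 0.27, 0.09, 0.20 and -0.27. In gene trap replicates 1 to 5 it was -0.35, 0.20, 4.1e-05, 0.11 and -0.09. Across the 10 tumors that rho had r = -0.67 with *Cnot2* (permutation p = 0.0384) and -0.58 with *Arid4b* (permutation p = 0.0548), both with p of 0.164 adjusted over the 6 genes, and 0.49 with *Sipa1* (permutation p = 0.157, adjusted 0.236). It had r = 0.52 with *Nup210* (permutation p = 0.126, adjusted 0.236), 0.43 with *Rrp1b* (permutation p = 0.214, adjusted 0.256) and 0.39 with *Cadm1* (permutation p = 0.265, adjusted 0.265), so that *Cadm1* and *Cnot2*, which have the same GC content, had r of opposite sign. By rank, rho lay between -0.62 for *Arid4b* and 0.53 for *Rrp1b*, with adjusted permutation p of at least 0.249. After the GC trend of each tumor was removed, r was -0.68 for *Sipa1* with *Arid4b* (adjusted permutation p = 0.429) and 0.45 for *Arid4b* with *Cnot2* (adjusted permutation p = 0.518). The part of GC content in the pairs was not otherwise tested.

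The genes of the table most like each susceptibility gene were taken as the 3 with the highest Pearson r over the 10 tumors, out of 13997 named genes with a mean of at least 100. Because they were chosen as the highest, their r is a description only. For *Sipa1* these were *Rai1* (r = 0.95), *Scaf4* (0.95) and *Srpk1* (0.93). For *Rrp1b* they were *Hdgfl2* (0.94), *Scamp3* (0.94) and *Sbno2* (0.94). *Cadm1* had the loosest neighbors, *Pdgfb*, *Zfp366* and *Cmtm3*, each with r = 0.89, and r fell to between 0.60 and 0.71 when the 2 tumors farthest from the median of *Cadm1* were left out. *Arid4b* was nearest to *Bmpr1a* (0.98), *Erap1* (0.97) and *Mtmr1* (0.97). *Cnot2* was nearest to *Cep57l1* (0.98), *Fbh1* (0.93) and *Mettl3* (0.93), and *Nup210* to *Pgam1-ps2* (0.94), *Tubb5* (0.93) and *Src* (0.92). Without gene trap replicate 2 the r of *Erap1* with *Arid4b* was 0.87, and that of *Cep57l1* with *Cnot2* was 0.99.

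The levels of the 6 genes were also set beside marker lists of 13 cell types or states that a mammary tumor can hold, with each list summarized as the mean log2 value of its measured genes. Of 78 relations, 0 had an adjusted p under 0.05 by Pearson's r or by rank (permutation test, 100000 resamples). By r, the strongest was that of *Rrp1b* with macrophage markers (r = -0.72, permutation p = 0.0206, adjusted 0.9996; rho = -0.68, permutation p = 0.0356, adjusted 0.995), and r was -0.35 without the 2 tumors farthest from the median of the markers. *Cadm1* with the basal and myoepithelial markers had r = 0.62 (permutation p = 0.0531, adjusted 0.9996) and rho = 0.54 (permutation p = 0.113, adjusted 0.995), and r was 0.38 without the 2 farthest tumors. Basal and myoepithelial markers were lower in gene trap tumors for 10 of 10 genes measured, of which limma gave 0 an adjusted p and 2 an unadjusted p under 0.05, and their sums were 8383 to 11565 in the wildtype and 6148 to 8652 in the gene trap group. Over all tested genes, 10221 of 21034 were lower, and limma gave 0.956% of all tested genes a lower value with an unadjusted p under 0.05. Without gene trap replicate 2, limma gave 4 of these 10 genes an unadjusted p under 0.05, and 398 of all tested genes in either direction. All measured genes were also lower in the milk (8 of 8), adipocyte (5 of 5) and mast cell (4 of 4) lists. The median log2 fold changes were -0.41, -0.48 and -0.11, beside -0.39 for the basal and myoepithelial list. That of the mast cell list was -0.19 without gene trap replicate 2. The part of basal and myoepithelial cells in the values of *Cadm1* was not tested.

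The partners of the 6 genes were examined in the same limma fit, in lists written from knowledge of each complex. In the 7 lists of complexes and partners, adjusted p-values under 0.05 were found for 0 genes and unadjusted ones for 2. Over all tested genes 1.32% were higher and 0.956% were lower at an unadjusted p under 0.05.

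For the Rap pathway of *Sipa1*, 12 of 22 tested genes were higher and 10 lower with the gene trap (median log2 fold change 0.02). At an unadjusted p under 0.05, 0 genes were higher and *Garnl3*, which encodes a protein with a Rap GTPase activating domain, was lower. It had values between 285 and 436 in wildtype and between 240 and 311 in gene trap tumors, of which 4 lay below every wildtype tumor. Its log2 fold change was -0.32 (standard error 0.13, unadjusted p = 0.0271, adjusted p = 0.9997 in limma's test). The paralogs of *Sipa1* had log2 fold changes of 0.14 (*Sipa1l1*), -0.02 (*Sipa1l2*) and 0.06 (*Sipa1l3*), and the GTPase gene *Rap2b* and the Rap1 effector gene *Krit1* had 0.19 and 0.11. Without gene trap replicate 2 these were -0.09 for *Sipa1l2*, -0.0093 for *Sipa1l3* and 0.10 for *Rap2b*, the median of the list was 0.07, and *Garnl3* was at -0.38 (unadjusted p = 0.0126 in limma). *Garnl3* had an unadjusted p under 0.05 in 6 of the 10 fits that each lacked a tumor (not without wildtype replicate 2 or 3 or gene trap replicate 1 or 4).

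For the nucleolar partners of RRP1B, 11 of 17 tested genes were higher and 6 lower, with a median log2 fold change of 0.06 and 0 genes past an unadjusted p under 0.05. The 3 with the smallest p were *Nop56* and *Fbl*, which encode proteins of box C/D small nucleolar ribonucleoproteins, and *Gnl3*, which encodes nucleostemin. *Nop56* had a log2 fold change of 0.19 (standard error 0.09, unadjusted p = 0.0509, adjusted p = 0.9997 in limma's test), *Gnl3* of 0.12 and *Fbl* of 0.27. *Fbl* was at 2157 in gene trap replicate 2 and between 943 and 1166 in the other gene trap tumors, and its log2 fold change was 0.06 without that tumor, where the median of the list was 0.03. The paralog *Rrp1* had values between 4426 and 5175 in wildtype and between 4451 and 4889 in gene trap tumors, and a log2 fold change of -0.04.

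For the CADM family, nectins and partners of CADM1, 9 of 16 tested genes were higher and 7 lower, with a median log2 fold change of 0.0053 and 0 past an unadjusted p under 0.05. *Afdn*, which encodes the nectin-binding protein afadin, had a log2 fold change of 0.12 and the scaffold gene *Dlg1* of -0.11. The paralog *Cadm4* had a wide spread, from 349 to 961 in wildtype and from 434 to 952 in gene trap tumors, and a log2 fold change of 0.17 (standard error 0.27). Without gene trap replicate 2 it was 0.04, *Dlg1* was at -0.04 and the median of the list was -0.01. *Cadm2* and *Crtam*, the CADM1 ligand of T and NK cells, were not among the genes of the table.

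For the SIN3-HDAC complex of ARID4B, 10 of 19 tested genes were higher and 9 lower, with a median log2 fold change of 0.00030 and 0 past an unadjusted p under 0.05. The subunit genes *Sap30*, *Sap18* and *Hdac2* had log2 fold changes of 0.22, 0.12 and -0.06. *Sap30* lay between 368 and 416 in wildtype tumors and reached 680 in gene trap replicate 2. Without that tumor the log2 fold changes were 0.08 (*Sap30*), 0.02 (*Sap18*) and -0.01 (*Hdac2*), and the median of the list was 0.0054. The paralog *Arid4a* had values of 1730 ± 136 (SD, n = 5) in wildtype and 1774 ± 122 (SD, n = 5) in gene trap tumors, and a log2 fold change of 0.04 (standard error 0.08).

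For the CCR4-NOT complex of CNOT2, 11 of 18 tested genes were higher and 7 lower, with a median log2 fold change of 0.02. *Cnot3*, whose protein pairs with CNOT2 in the complex, was the gene with the smallest p. Its values were 816, 976, 1010, 964 and 821 in wildtype replicates 1 to 5 and 1039, 1102, 1101, 1017 and 993 in gene trap replicates 1 to 5, so that 4 gene trap tumors lay above every wildtype tumor. The log2 fold change was 0.20 (standard error 0.08, 95% interval 0.02 to 0.38), with an unadjusted p of 0.0326 and an adjusted p of 0.9997 in limma's test (exact two-sided permutation p = 0.0159). Without gene trap replicate 2, 0 of the 18 genes had an unadjusted p under 0.05 and *Cnot3* was at 0.18 (unadjusted p = 0.0535 in limma). *Cnot3* had an unadjusted p under 0.05 in 6 of the 10 fits that each lacked a tumor (not without wildtype replicate 1 or 5 or gene trap replicate 2 or 3). *Cnot3* thus had a higher mean in gene trap tumors where *Cnot2* had a lower mean, and the difference between the 2 genes was not tested. *Btg2*, an antiproliferative gene whose protein recruits the deadenylase, ranged from 1422 to 5730 in wildtype tumors and from 1511 to 2018 in gene trap tumors (log2 fold change -0.56, standard error 0.29, and -0.28 without wildtype replicate 4, its highest tumor). The RNA helicase gene *Ddx6* had a log2 fold change of 0.08, which was 0.04 without gene trap replicate 2, where the median of the list was 0.03.

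For the nuclear pore complex of NUP210, 16 of 31 tested genes were higher and 15 lower, with a median log2 fold change of 0.0017, and 0 past an unadjusted p under 0.05. All 31 log2 fold changes lay between -0.10 and 0.11. The nucleoporin genes *Nup50*, *Nup88* and *Nup214* had the smallest p, with log2 fold changes of 0.11, 0.09 and 0.09, and the paralog *Nup210l* was at a low level, at 34.5 ± 9.2 (SD, n = 5) and 32.6 ± 9.23 (SD, n = 5), with a log2 fold change of -0.08. The fold change of *Nup210l* and the median of the pore genes were both 0.02 without gene trap replicate 2. In the LINC complex and lamina, which join the nucleus to the cytoskeleton, 5 of 10 tested genes were higher and 5 lower, with a median log2 fold change of 0.0028 and 0 past an unadjusted p under 0.05. *Syne1*, *Sun1* and *Lmnb2* had -0.14, -0.07 and 0.08, and -0.03, -0.0068 and -0.0057 without gene trap replicate 2, where the median was -0.02.

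**Figure D5:**
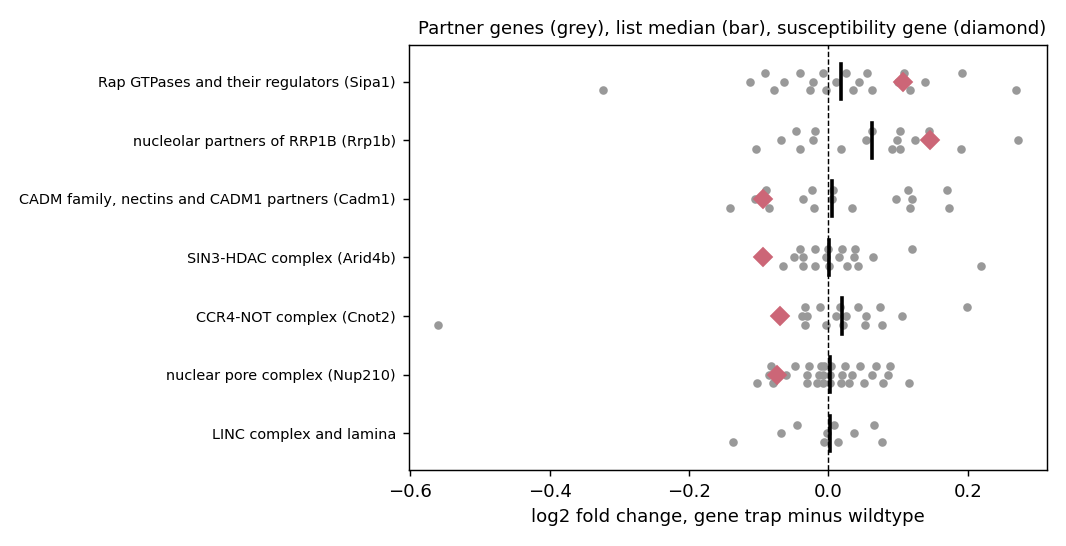
Log2 fold change of gene trap against wildtype tumors (horizontal axis) for the measured genes of 7 partner lists (grey points), with the list median (bar) and, for 6 lists, the susceptibility gene the list belongs to (diamond). The list medians lie between 0.00030 and 0.06, and the susceptibility genes lie within the range of their partners except *Arid4b*, which is below the lowest SIN3-HDAC gene at -0.06. Without gene trap replicate 2, *Arid4b* was at -0.04 and the lowest SIN3-HDAC gene at -0.14, so that *Arid4b* was within the range. In the CCR4-NOT list only *Btg2* (-0.56) lies below *Cnot2*.

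Other inherited modifiers and their partners were measured in the same tumors. The splicing factor gene *Luc7l* had a log2 fold change of 0.10 (standard error 0.08), and *Ndn*, which encodes necdin, of 0.47 (standard error 0.31) at a low level of 32.2 to 88.9 in wildtype and 53.0 to 94.7 in gene trap tumors.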

How the data were processed

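RNA-seq values of primary mammary tumors were taken from 1 table. The deposited values are the authors' estimated gene counts after normalization between tumors, a signal and not raw counts. The labels name Partek, STAR (2.7.8a), DESeq2 and mm39 in the submitters' processing notes, and the counter and annotation are not given in the sources used here. Set against geometric means over the 10 columns, the columns had median ratios of 1.005 to 1.006. Of 16 columns, 10 matched a labelled tumor by name, and 6 named by an animal's number were not used.

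A pseudocount of 1 was added before taking log2, and genes with a mean of at least 10 were fitted with limma (3.58.1, R 4.3.3, variance trend, Benjamini-Hochberg over all tested genes). Such fold changes understate changes of genes with low values. The fit was tested on simulated data for 21034 genes, where it recovered 0 of 200 at a 1.2-fold change, 56 at 1.5-fold and 132 at 2-fold. Single genes were tested by exact two-sided permutation over 252 arrangements, and correlations with 100000 resamples (Python 3.11.15). Symbols, exon lengths and GC content came from GENCODE mouse release 21, with no coordinates, because that release is on another build (GRCm38), and promoters from RefSeq. *Nup42* was found under an older symbol and *Nup58* was not found. Only marker lists with at least 3 tested genes were used, which left out keratinocyte markers. Genes named are the 6 genes, *Resf1*, paralogs, the 3 smallest p of each partner list and the 3 most similar genes, and 2 genes that meet the rule are not reported here. *Crtam*, *Cadm2* and overlapping genes were named after the table was seen. The genes and lists were chosen with earlier results of these data known. Alternatives were other pseudocounts, filters and scalings, tumor weights, no variance trend, a replicate block, a GC correction and leaving out each tumor.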

Additional observations from a re-analysis of the deposited data

Results flagged for a closer look

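In 76 groups of 5 tumors, from 38 genes examined, 2 single tumors stood far outside their own group by Dixon's test, where about 3.8 are expected by chance. *Fbl* reached 2157 in gene trap replicate 2, while the remaining 4 of that group had 943 to 1166. *Gnl3* was 1798 in wildtype replicate 4, while the remaining 4 of that group had 2120 to 2228. No value of the 6 susceptibility genes was among them.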

How the results depend on the processing

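The log2 fold change of each of the 6 genes kept its sign in 21 of 21 alternative fits, and limma gave 0 of them an adjusted or unadjusted p under 0.05 in those fits. With single tumors left out, the values were 0.05 to 0.16 for *Sipa1*, 0.08 to 0.22 for *Rrp1b*, -0.16 to -0.0050 for *Cadm1*, -0.12 to -0.04 for *Arid4b*, -0.10 to -0.04 for *Cnot2* and -0.15 to -0.04 for *Nup210*. Over all genes, 0 had an adjusted p under 0.05 in each fit and between 305 and 692 an unadjusted p under 0.05. The labels give tumors with the same replicate number nothing in common but the number, and the mean correlation of their deviations was -0.00977. Their GC trends were alike in sign in replicates 1, 2, 4 and 5. In replicate 3 the rho was 0.09 in wildtype and near 0 in gene trap (4.1e-05). Whether tumors of the same number shared a step of handling was not tested. With the number as a block the fold changes were the same, with an unadjusted p of 0.192 for *Rrp1b* in limma and 426 genes under 0.05. The correlation of *Sipa1* and *Arid4b* did not pass for deviations from the group means (-0.79), quantile normalization (-0.58) or GC correction (-0.68), and lay between -0.85 and -0.77 with a tumor left out, passing in 8 of 10 (not without wildtype replicate 2 or gene trap replicate 2). That of *Arid4b* and *Cnot2* did not pass for deviations (0.68) or GC correction (0.45), and lay between 0.70 and 0.85 with a tumor left out, passing in 3 of 10. The count of pairs that passed was 2, and 0, 1 and 0 for deviations, quantile normalization and GC correction, and the cause was not tested. GC correction and leaving out tumors in the pairs were chosen after the data were seen. The depth of each tumor is unknown. In the simulated data, 0 of 200 genes changed by 1.2 fold reached an adjusted p under 0.05 in limma.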
